A study of Mus musculus with 62 samples.

Results

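The expression of 10 genes of the integrated stress response, the program that the transcription factor Atf4 directs, was followed through the long-RNA libraries of a study of amyloid beta. They were the rows named Atf4, Ddit3, Atf3, Atf5, Trib3, Ppp1r15a, Sesn2, Asns, Psat1 and Chac1 in the deposited gene abundance tables, 10 genes with 11 gene IDs among 53975. Of these, 8 genes in mouse and 9 in HT-22 cells reached the mean of 1 TPM (a transcript's share of all transcripts in a library, corrected for length) needed for a test. Trib3 and Atf3 in mouse, and Atf3 in HT-22 cells, did not. Ddit3 has a second gene ID (ENSMUSG00000116429) that overlaps the main one (ENSMUSG00000025408) on the same strand. The second ID averaged 0.388 TPM in HT-22 cells and 0.165 TPM in mouse, so it was under the minimum, and how reads were divided between the overlapping IDs is uncertain.

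The tissue libraries came from whole hippocampus, left and right pooled per mouse. APP NL-G-F mice, called APP here, carry a humanised App allele with familial Alzheimer mutations at its own locus rather than a transgene, and C57BL/6J mice, called WT, were the controls. Ages were 3, 6 and 12 months. Every age and genotype held 3 mice, apart from WT of 3 months with 2. The cell libraries came from HT-22, an immortalised mouse hippocampal line, at passage 4. All HT-22 cells received an LNA (locked nucleic acid oligonucleotide) for 24 h and then a peptide at 30 uM in DMSO, so no group was without LNA or peptide. The LNA was directed against Hsf1 at 150 nM or was a scramble, for which the labels state 50 uM. The peptide was amyloid beta 1-42, called Ab42, or its reversed sequence. Scramble groups held 4 libraries for each peptide, and anti-Hsf1 groups held 3. The labels do not say whether libraries of 1 group came from separate cultures, so p-values measure only the spread between these libraries.

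The integrated stress response begins with kinases that sense amino acid shortage, unfolded protein in the endoplasmic reticulum, haem deficiency or double-stranded RNA, and that phosphorylate the translation initiation factor eIF2. General protein synthesis then falls while translation of Atf4 rises, so a change in Atf4 protein need not appear in its mRNA. Atf4 switches on genes for amino acid uptake and synthesis, tRNA charging and glutathione breakdown, together with Ddit3, Trib3 and Ppp1r15a, which feed back on the response or lead toward cell death. In brain, the response is studied in memory formation and in neurodegeneration.

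Promoters are shown first because Atf4 pairs with C/EBP proteins on a composite element, searched here as TGATGNAA on both strands. In RefSeq promoter windows on GRCm38.p6, 250 bases before to 50 bases after each gene's start, the element was found in 3.97% of 32851 windows. All 10 genes had a window, 12 windows in all, and 4 genes held the element: Chac1, Asns, Atf3 and Trib3. The palindromic cyclic AMP response element, TGACGTCA, lay in 1.79% of all windows and in that of Ppp1r15a among the 10 genes. The 2 motifs share no match in these genes. The windows below are printed 5′ to 3′ on the gene's strand up to the start, with the match in capitals. For Trib3, where the match begins 14 bases past the RefSeq start, only the 30 bases around it are given. RefSeq starts can differ from those of the deposited gene positions printed further below. By the deposited positions, the Trib3 match lies before the gene's start. The Asns match and the whole Atf3 window lie inside the gene by those positions.
Chac1, chr2:119350992-119351241, plus strand: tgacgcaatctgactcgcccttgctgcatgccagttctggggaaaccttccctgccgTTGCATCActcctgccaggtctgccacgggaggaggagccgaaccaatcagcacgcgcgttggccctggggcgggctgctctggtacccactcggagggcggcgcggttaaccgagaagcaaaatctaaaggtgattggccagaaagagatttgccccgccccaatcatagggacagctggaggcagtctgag
Asns, chr6:7693210-7693459, minus strand: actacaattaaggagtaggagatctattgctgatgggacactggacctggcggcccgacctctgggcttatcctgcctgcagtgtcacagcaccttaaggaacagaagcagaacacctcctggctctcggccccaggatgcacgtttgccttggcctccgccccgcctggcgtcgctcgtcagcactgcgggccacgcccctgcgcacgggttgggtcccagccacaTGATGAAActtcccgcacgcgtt
Atf3, chr1:191183334-191183583, minus strand: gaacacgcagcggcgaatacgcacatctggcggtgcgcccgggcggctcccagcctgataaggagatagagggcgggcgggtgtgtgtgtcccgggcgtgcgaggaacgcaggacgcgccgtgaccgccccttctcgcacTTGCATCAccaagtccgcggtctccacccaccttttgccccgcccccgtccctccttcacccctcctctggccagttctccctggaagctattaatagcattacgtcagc
Ppp1r15a, chr7:45526269-45526518, minus strand: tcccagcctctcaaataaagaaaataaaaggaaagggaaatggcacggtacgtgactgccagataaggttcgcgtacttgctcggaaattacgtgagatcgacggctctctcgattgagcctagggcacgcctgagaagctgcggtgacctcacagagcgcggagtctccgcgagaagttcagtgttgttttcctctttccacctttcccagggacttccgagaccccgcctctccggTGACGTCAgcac
Trib3, chr2:152344028-152344057, minus strand: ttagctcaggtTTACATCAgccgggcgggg
The match began 193 bases before the RefSeq start in Chac1, 110 in Atf3, 23 in Asns and 12 in Ppp1r15a. It read TTGCATCA in both Chac1 and Atf3, which is the element on the opposite strand, and TGATGAAA in Asns. A match is a description of letters and not evidence of binding, and the genes without one may carry other forms elsewhere. Of the 9 genes tested in HT-22 cells, Chac1 had the widest ratio of highest to lowest library, 9.62 on the scaled TPM described below. Among the others with the element, Trib3 had 5.96 and Asns 2.58. Without the element, Sesn2 had 4.60, Ppp1r15a 4.51, Atf4 2.79, Psat1 2.07, Ddit3 1.74 and Atf5 1.22. A link between element and levels was not tested.

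Levels below are scaled TPM, that is, TPM divided by a median of ratios size factor within mouse or within HT-22. Scaling matters because protein-coding genes held 26.6% to 51.0% of TPM in mouse libraries and 30.1% to 61.8% in HT-22 libraries. Relative depth, read as the ratio of coverage to FPKM, was 1.42 to 3.04 for mouse libraries and 0.724 to 2.60 for HT-22 libraries, and read counts are unknown. The Hsf1 level, which checks the LNA labels, overlapped between LNAs with reverse peptide: 43.1 to 61.9 scaled TPM with scramble and 43.1 to 52.6 in libraries labelled anti-Hsf1. With Ab42 it was 49.0 to 71.3 with scramble and 43.3 to 51.4 in libraries labelled anti-Hsf1, so on this scale Hsf1 levels did not separate by label. On TPM as deposited they overlapped with reverse peptide, at 42.9 to 70.6 with scramble and 45.7 to 59.9 with anti-Hsf1, and separated with Ab42, at 60.3 to 80.0 and 27.7 to 44.0. HT-22 libraries listed the neuron markers Snap25, Syt1 and Rbfox3 at 0 in all 14, and their 5 neuron markers summed to at most 1.24 scaled TPM, against 1274 to 2314 in hippocampus. In mouse, APP libraries and WT libraries of 3 months held Xist at 74.8 to 201 TPM, and WT libraries of 6 and 12 months held it at 0.215 to 0.438 TPM with the Y-linked Ddx3y at 19.3 to 23.4. Genotype at 6 and 12 months, and age in WT, therefore cannot be told apart from sex. The genotype change averaged over ages and the genotype by age interaction use these groups, so sex enters them as well.

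In HT-22 cells the stress response genes were high in 3 scramble libraries and lower in the other 11. These 3 were replicates 3 and 4 of Ab42 with scramble and replicate 4 of reverse peptide with scramble, so both peptides were represented. They held the 3 highest of 14 values for 8 of the 9 genes tested, Atf5 being the exception, against 15.5% of all 17291 genes tested. On TPM as deposited the count was also 8 of 9, against 15.6%. The 3 libraries were singled out after their values were seen, so they are described library by library and not tested as a group.

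Chac1 (chr2:119351229-119354381, gene positions on GRCm38 as in the deposited tables), an enzyme that degrades glutathione, gave the largest ratios of the 9 genes. With Ab42 and scramble it was 10.6, 15.2, 94.0 and 101.6 scaled TPM in replicates 1 to 4. With reverse peptide and scramble it was 14.6, 15.0, 15.2 and 95.2. The 6 libraries labelled anti-Hsf1 lay between 11.8 and 15.1, within the range of the 5 low scramble libraries. The high values were 6.46, 6.98 and 6.55 times the median of the other 11 libraries, which was 14.6.

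Sesn2 (chr4:132492032-132510501), a stress-induced protein that restrains the growth kinase mTORC1, had the same arrangement. Its values with Ab42 and scramble were 17.5, 20.5, 56.3 and 54.6 scaled TPM. With reverse peptide and scramble they were 16.9, 12.2, 14.2 and 54.1. The libraries labelled anti-Hsf1 held 12.6 to 18.2. The 3 high libraries stood 3.19 to 3.33 times above the median of the rest and close to each other.

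Trib3 (chr2:152337422-152344032), a pseudokinase that inhibits Akt and restrains Atf4, was 10.4, 11.7, 31.4 and 23.2 scaled TPM with Ab42 and scramble. It was 8.68, 5.85, 11.9 and 28.3 with reverse peptide and scramble, and 5.27 to 10.9 in the libraries labelled anti-Hsf1. Its high values were thus 2.28 to 3.08 times the median of the other 11. Ppp1r15a (chr7:45522916-45526268), also called Gadd34, guides a phosphatase to eIF2 and so ends the response. It was 7.64, 12.1, 31.1 and 33.4 with Ab42 and scramble, and 15.0, 24.8, 15.3 and 34.4 with reverse peptide and scramble. It varied more among the other 11 libraries, from 7.64 to 24.8, than did Chac1.

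Atf4 itself (chr15:80255184-80257541) was uneven among the 3 high libraries. It was 176, 188, 446 and 248 scaled TPM with Ab42 and scramble, and 225, 218, 210 and 492 with reverse peptide and scramble. Replicate 4 of Ab42 stood 1.24 times above the median of the other 11 libraries, where replicate 3 and the high reverse peptide library stood 2.23 and 2.46 times above it. The same replicate 4 had the highest Chac1 value of all, so the order of Atf4 mRNA among the 3 libraries was not the order of Chac1.

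Ddit3 (chr10:127290774-127296288), the factor also called CHOP that is tied to cell death under prolonged stress, was 44.3, 38.4, 65.5 and 63.5 scaled TPM with Ab42 and scramble. It was 50.6, 37.5, 41.3 and 64.9 with reverse peptide and scramble, or 1.5 to 1.54 times the median of the rest in the high libraries. Atf5 (chr7:44812256-44816658), a factor that Atf4 can induce, did not follow. Its 14 values lay between 120 and 146 scaled TPM, and the 3 libraries held 125, 128 and 133. Atf3 (chr1:191170296-191218039), an early stress-induced factor, was listed at 0 in all 14 HT-22 libraries. No ribosomal protein gene of 72 was listed at 0 in all of them, and the neighbouring genes Nenf and Ppp2r5a averaged 25.5 and 43.7 TPM. The nearer genes Batf3, Gm38161, Fam71a and Gm24748 were also listed at 0 in all 14, as were 3646 of 21547 gene IDs with a mean of at least 0.5 TPM in mouse. In mouse, however, Batf3 averaged only 0.299 TPM, and Gm38161, Fam71a and Gm24748 averaged 0.0 TPM there too. Between Atf3 and Nenf, however, D730003I15Rik averaged 4.55, Gm37074 0.823 and Gm37168 0.0865 TPM in HT-22 cells.

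The biosynthetic enzymes were higher by smaller ratios than Chac1. Asns (chr6:7675169-7693254), which makes asparagine, was 57.8, 69.6, 110 and 119 scaled TPM with Ab42 and scramble, and 68.4, 53.2, 63.3 and 137 with reverse peptide and scramble. Psat1 (chr19:15904678-15947337), an aminotransferase of serine synthesis, was 207, 209, 343 and 323 with Ab42 and scramble, and 198, 214, 219 and 337 with reverse peptide and scramble. The high libraries stood 1.77 to 2.21 times above the other 11 for Asns and 1.63 to 1.73 times for Psat1.

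**Figure D1:**
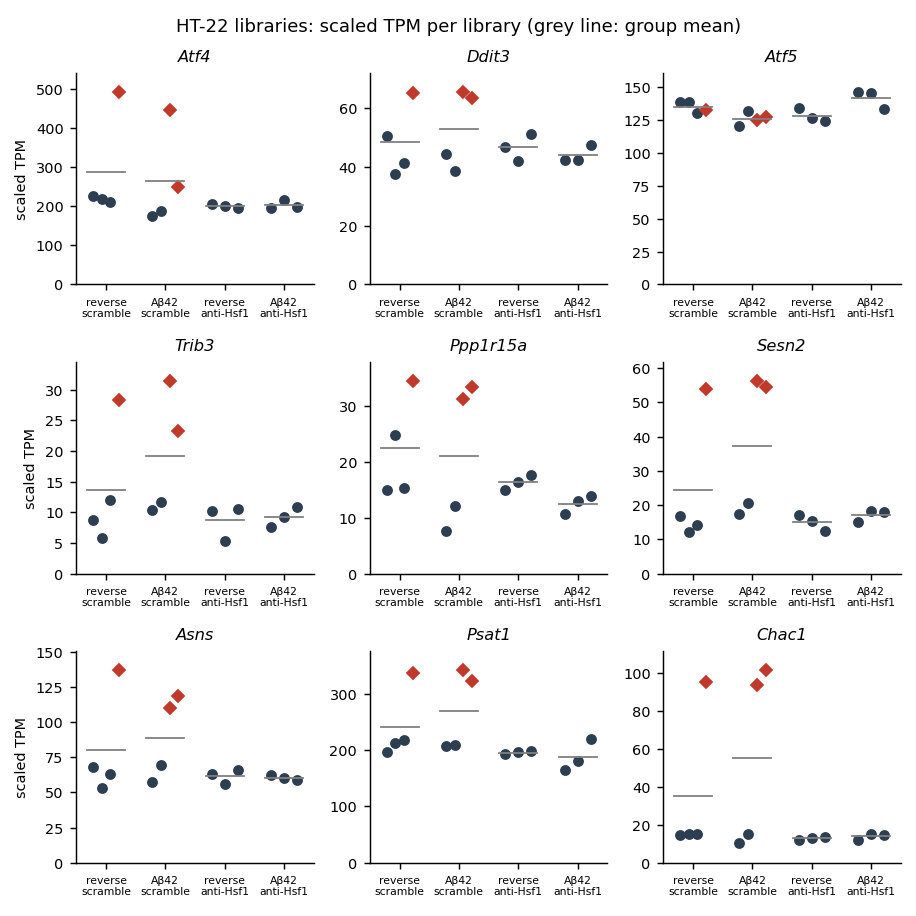
Scaled TPM (vertical axis, from 0) of the 9 genes tested in HT-22 cells, 1 point per library by peptide and LNA, with grey lines at group means and red diamonds for Ab42 scramble replicates 3 and 4 and reverse peptide scramble replicate 4. Chac1 reaches 94.0 to 101.6 in the diamonds and at most 15.2 elsewhere, while Atf5 stays between 120 and 146.

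Against this spread, none of the 9 genes passed the test in any of the 5 HT-22 contrasts (limma with Benjamini-Hochberg adjustment over 17291 genes, called at an adjusted p below 0.05). The background was also near 0: 0.0% of all genes were called for Ab42 against reverse peptide under either LNA, for anti-Hsf1 against scramble with reverse peptide and for the peptide by LNA interaction, and 0.0231% for anti-Hsf1 against scramble with Ab42. At an unadjusted p below 0.05, limma gave 866 genes for the peptide under scramble, 794 for it under anti-Hsf1, 628 for the LNA with reverse peptide, 1555 with Ab42 and 899 for the interaction. Of the 9 genes only Psat1 was among these, in the LNA contrast with Ab42. The 9 genes had a median log2 change of 0.15 for the peptide under scramble, 0.02 under anti-Hsf1, -0.36 for the LNA with reverse peptide and -0.49 with Ab42, beside medians over all genes within 0.01 of 0.

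For Chac1, Ab42 against reverse peptide under scramble gave a log2 change of 0.56 (95% interval -0.98 to 2.099, limma adjusted p 0.953). Without the 3 high libraries it was -0.22 (-0.58 to 0.13, limma adjusted p 0.778). High libraries numbered 2 of 4 with Ab42 and 1 of 4 with reverse peptide, and the direction differed with and without them. Libraries labelled anti-Hsf1 differed from scramble for Chac1 with Ab42 by -1.31 (-2.98 to 0.35, limma adjusted p 0.572), and by 0.11 (-0.24 to 0.47, limma adjusted p 0.902) without the 3. The same contrast for Sesn2 went from -0.90 (-1.93 to 0.13) to -0.15 (-0.53 to 0.23), and for Trib3 from -0.86 (-1.85 to 0.14) to -0.25 (-0.94 to 0.45). For Psat1 it went from -0.49 (-0.95 to -0.03, limma adjusted p 0.55) to -0.15 (-0.40 to 0.10, limma adjusted p 0.779). The intervals narrowed among the 11 libraries, which follows from leaving out the high values and is not a result. In that fit the log2 change for the peptide under anti-Hsf1 was -0.02 for Asns (-0.26 to 0.23) and -0.06 for Psat1 (-0.29 to 0.16).

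Ppp1r15a turned sign. Anti-Hsf1 against scramble with Ab42 was -0.49 (-1.40 to 0.43, limma adjusted p 0.668) with all libraries and 0.34 (-0.19 to 0.87, limma adjusted p 0.77) without the 3. Among libraries labelled anti-Hsf1 it was lower with Ab42, 10.6, 13.1 and 13.8 scaled TPM, than with reverse peptide, 15.0, 16.4 and 17.5, and these groups did not overlap, as for 9.63% of all genes in this direction. The log2 change there was -0.36 (-1.34 to 0.61, limma adjusted p 1.0). For the peptide under scramble, the log2 change was -0.23 with all libraries (-1.08 to 0.61, limma adjusted p 0.959). Without the 3 high libraries it was -0.83 (-1.36 to -0.30) at an unadjusted limma p of 0.00571 and an adjusted p of 0.545, with 0.00578% of 17295 genes called. Ab42 with scramble then held only replicates 1 and 2, at 7.64 and 12.1 scaled TPM. Atf4 in this contrast gave -0.12 with all libraries (-0.75 to 0.52, limma adjusted p 0.9745) and -0.26 without the 3 (-0.44 to -0.08, limma adjusted p 0.548). The 3 libraries were left out after their high values were seen. Intervals and p-values without them are therefore descriptive only.

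Groups separated for a few genes without passing the test. With reverse peptide, all libraries labelled anti-Hsf1 lay below all scramble libraries for Atf4, at 195 to 206 against 210 to 492 scaled TPM, and for Chac1, at 11.9 to 13.4 against 14.6 to 95.2, as for 2.82% of genes in that direction. The log2 changes were -0.41 for Atf4 and -0.87 for Chac1, both at a limma adjusted p of 0.959, and -0.12 and -0.22 without the 3 high libraries, both at 0.947. With Ab42, Atf5 was higher in libraries labelled anti-Hsf1, at 133 to 146 against 120 to 132, as for 4.35% of genes in that direction, at a log2 change of 0.17 (-0.01 to 0.34, limma adjusted p 0.553).

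**Figure D2:**
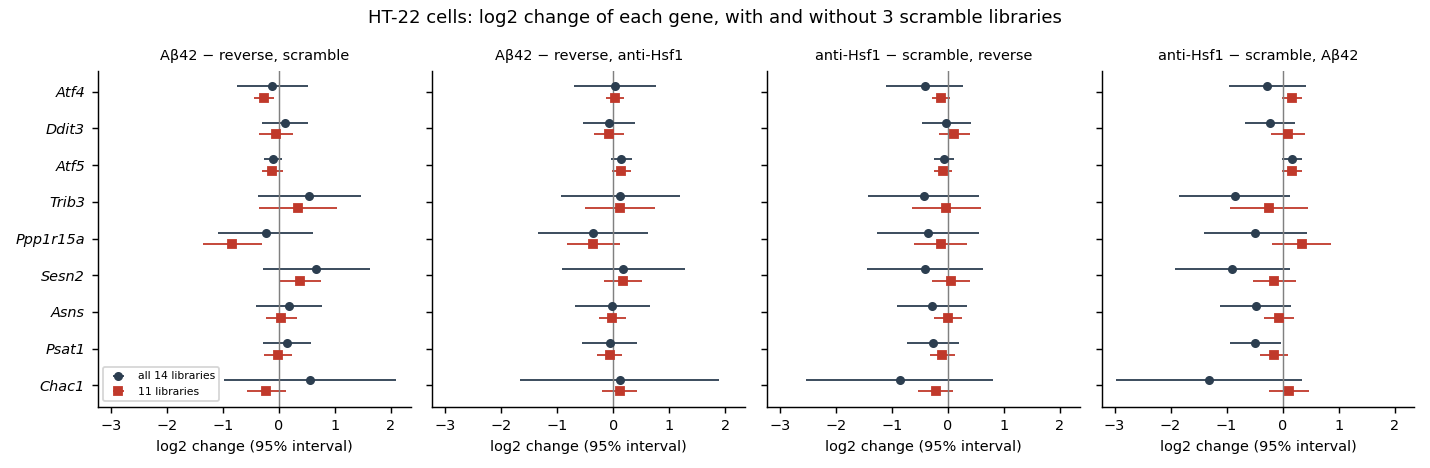
Log2 change of the 9 genes in 4 HT-22 contrasts (horizontal axis) with 95% intervals, from all 14 libraries (dark circles) and from the 11 libraries left without the 3 high ones (red squares). Intervals of Chac1, Sesn2 and Trib3 shrink without the 3 libraries, which were left out after their high values were seen. The Chac1 change for Ab42 against reverse peptide under scramble goes from 0.56 to -0.22.

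Other genes of the pathway were high in the same libraries. All 12 aminoacyl-tRNA synthetases, which charge tRNAs with amino acids, had their 3 highest values there on scaled TPM, and 11 on TPM as deposited. Among serine, one-carbon and transsulfuration enzymes this held for 8 of the 9 tested, with Shmt2 at 166 to 188 scaled TPM against 59.4 to 76.7 in the other 11. Aldh1l2, the mitochondrial folate enzyme, did not follow, at 61.9 to 69.9 against 59.3 to 74.9. Of 9 amino acid transporters 7 followed. The paired subunits Slc3a2 and Slc7a5, which import large neutral amino acids, were 284 to 310 against 87.0 to 103, and 198 to 203 against 57.8 to 71.1. Slc38a2, a transporter of small neutral amino acids, was 352 to 395 against 368 to 424. Among other stress response targets 9 of 11 tested followed, 8 on TPM as deposited. Herpud1, which acts in degradation of endoplasmic reticulum proteins, was 82.0 to 86.6 against 27.3 to 42.9, and Ddit4, an mTORC1 inhibitor, was 139 to 177 against 42.0 to 62.0. Of 7 genes for eIF2 or for proteins that act on it, 3 followed. Eif2s1, a subunit of eIF2, was 42.0 to 50.6 against 22.8 to 30.6. Eif2b5 was 36.8 to 40.3 against 24.0 to 29.6, and Ppp1r15b was 91.5 to 102 against 42.1 to 49.2. The 4 kinases, Eif2ak1 to Eif2ak4, did not. No gene of these lists passed the test in an HT-22 contrast on scaled TPM. Using TPM as deposited, 43 of 48 were called lower in libraries labelled anti-Hsf1 than in scramble with Ab42 (50.5% of all genes), 14 for the peptide by LNA interaction (25.3%) and 7 for Ab42 against reverse peptide under anti-Hsf1 (24.2%).

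Immediate-early genes, which cells transcribe within minutes of growth factor, calcium or stress signals, were also high in the same libraries. All 8 tested had their 3 highest values there, and the list summed to 1062 to 1236 scaled TPM against 128 to 202 in the other 11. Nr4a1, an orphan nuclear receptor, was 205, 224 and 209 against 0.958 to 6.98. These libraries held 55.7% to 61.8% of TPM in protein-coding genes, against 30.1% to 54.3%, and a relative depth of 1.20 to 2.60, against 0.724 to 1.21. The first principal component of the HT-22 libraries, with 33.4% of the variance, gave them loadings of 0.490 to 0.529 and the others -0.203 to -0.0977. Microglia markers summed to 53.5 to 55.2 scaled TPM there and 6.94 to 13.96 elsewhere, with Tmem119 the only 1 of the 4 to reach the level for a test. Over all 14 libraries the sums reached at most 1.24 for neuron, 1.601 for astrocyte, 2.096 for oligodendrocyte and 0.362 for choroid plexus markers. The part of any of these in the stress gene levels was not tested.

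**Figure D3:**
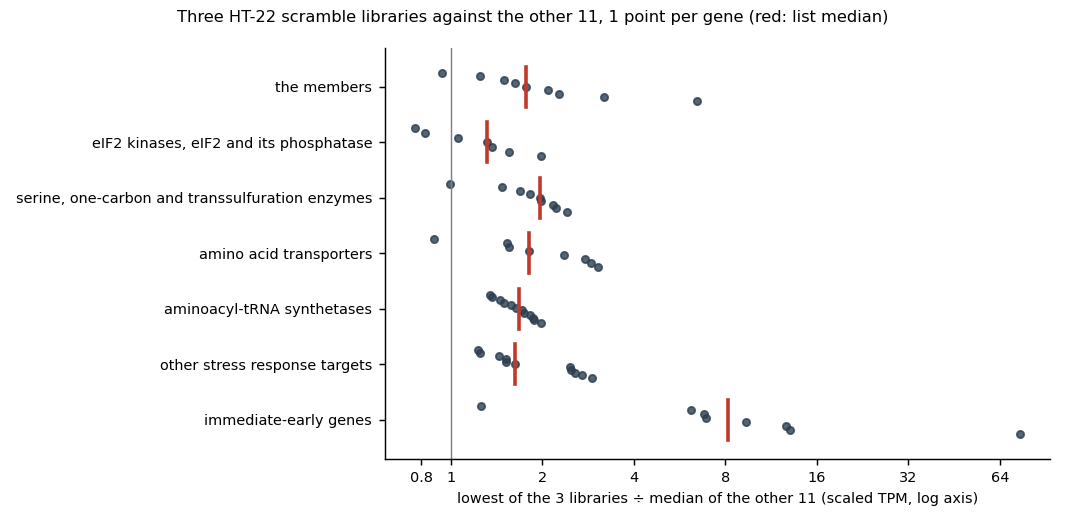
Lowest of the 3 high HT-22 libraries divided by the median of the other 11 (horizontal axis, log scale, scaled TPM), 1 point per gene tested in each list, with red bars at list medians and without Slc7a3, which was at 0 in 1 of the 3. The list medians run from 1.31 for eIF2 kinases and partners, through 1.77 for the 9 tested stress genes (marked as the members), to 8.14 for immediate-early genes, beside 0.828 over all genes tested.

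In mouse hippocampus no difference in these genes passed the test. This held for all 8 tested and all 7 mouse contrasts on scaled TPM (limma, Benjamini-Hochberg over 17840 genes). The background for APP against WT was 0.303% of genes at 3 months, 1.66% at 6 months, 0.443% at 12 months and 0.241% averaged over ages. It was 0.437% for the genotype by age interaction, 0.0617% for 12 against 3 months in WT and 3.28% for that in APP. At an unadjusted p below 0.05 limma gave 2385, 3029, 1255, 2190, 2859, 1475 and 2933 genes in these 7 contrasts. The 8 stress genes contributed 1, 1, 0, 0, 2, 1 and 1 of these in the same order. Their median log2 change was -0.09, 0.07 and 0.04 at 3, 6 and 12 months, beside medians over all genes within 0.01 of 0. Since these were bulk tissue libraries, fewer cells of a type and less RNA per cell cannot be told apart.

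Among the 8 genes tested, Atf4 had the lowest limma adjusted p in any mouse contrast on scaled TPM. At 3 months it was 44.6 and 56.6 scaled TPM in WT and 46.5, 35.9 and 51.0 in APP. At 6 months it was 38.5, 28.5 and 31.7 in WT and 42.9, 42.2 and 41.0 in APP, and at 12 months 30.0, 32.6 and 33.9 in WT and 35.2, 38.8 and 31.9 in APP. The groups did not overlap at 6 months, as for 11.1% of all genes in that direction, and the log2 change was 0.35 (SE 0.14, limma adjusted p 0.204). From 3 to 12 months Atf4 changed in WT by -0.63 (95% interval -0.96 to -0.30, unadjusted limma p 0.00109, adjusted p 0.274), and both 3-month values lay above all of 12 months, as for 13.7% of genes in that direction. In APP that difference was -0.32 (-0.61 to -0.02, limma adjusted p 0.269).

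Ddit3 stayed between 11.8 and 17.3 scaled TPM in all 17 libraries. At 12 months it was 13.3, 14.8 and 13.6 in APP and 13.1, 12.8 and 11.8 in WT, without overlap, as for 8.67% of genes in that direction, at a log2 change of 0.13 (95% interval -0.13 to 0.40, limma adjusted p 0.942). Atf5 was 8.01, 9.37 and 9.05 in APP and 7.06, 7.41 and 7.55 in WT at the same age, at 0.23 (-0.11 to 0.57, limma adjusted p 0.88), more than the 0.13 of Atf4 (-0.17 to 0.42, limma adjusted p 0.961). At 6 months Atf5 gave 0.31 (-0.02 to 0.65, limma adjusted p 0.336), and at 3 months the direction was the other way, -0.32 (-0.69 to 0.06, limma adjusted p 0.478), and the genotype by age test gave an unadjusted limma p of 0.0398 and an adjusted p of 0.285.

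Atf3 was low in tissue and under the level needed for the test. At 12 months it was 1.23, 1.16 and 0.978 scaled TPM in APP and 0.391, 0, and 0.219 in WT. At 6 months it was 0.332, 1.099 and 0.507 in APP and 0.151, 0.416 and 0 in WT, and at 3 months 0.293, 0.482 and 0.423 in APP and 0.592 and 0.229 in WT. All 3 APP mice of 12 months exceeded every WT mouse of the study and every APP mouse of 3 months. Such separation from WT of 12 months held for 6.17% of the 35961 genes with any value above 0, and from APP of 3 months for 8.4%, in that direction. Without the filter on low TPM the log2 change at 12 months was 0.83 (95% interval 0.42 to 1.24) at an unadjusted limma p of 0.000705 and an adjusted p of 0.129. In the same setting, 12 against 3 months in APP gave 0.60 (0.19 to 1.01, limma adjusted p 0.179). APP mice of 12 months also had microglia markers summing to 73.4 to 88.8 scaled TPM, against 53.1 to 67.4 in WT, and astrocyte markers summing to 1134 to 1302 against 775 to 820. In each list only 1 of 4 markers was called higher, beside 0.443% of all genes called in either direction. The median log2 change was 0.14 for microglia markers, 3 of 4 above 0, and 0.315 for astrocyte markers, 4 of 4 above 0. Choroid plexus markers summed to 1405 to 1626 against 417 to 1288 and oligodendrocyte markers to 629 to 745 against 562 to 618, while neuron markers summed to 1961 to 2067 against 2089 to 2254. The part of these lists in the Atf3 values was not tested.

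Among the feedback regulators, Trib3 was listed at 0 in 10 of 17 mouse libraries and reached at most 0.342 scaled TPM. Its values at 12 months, 0.117 to 0.155 in APP and 0 to 0.108 in WT, were close to 0. They did not overlap, as for 6.17% of the 35961 genes with any value above 0 in that direction. Ppp1r15a lay between 2.28 and 4.57 in all libraries. Sesn2 at 3 months was 4.30 and 4.77 in WT and 2.82, 3.47 and 3.55 in APP, without overlap, as for 13.4% of genes in that direction. Its log2 change was -0.37 (95% interval -0.73 to -0.02, unadjusted limma p 0.0404, adjusted p 0.344), and at 6 months it was 0.24 (-0.08 to 0.55, limma adjusted p 0.455).

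The enzymes differed little between groups. Asns lay between 31.6 and 42.7 scaled TPM and Psat1 between 35.1 and 51.7 over the 17 libraries. Averaged over ages, APP differed from WT by -0.07 for Asns (95% interval -0.21 to 0.06, limma adjusted p 0.691) and by 0.09 for Psat1 (-0.07 to 0.25, limma adjusted p 0.688). Chac1 was low, between 1.26 and 3.37 scaled TPM, and differed by 0.01 (-0.33 to 0.35, limma adjusted p 0.992).

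**Figure D4:**
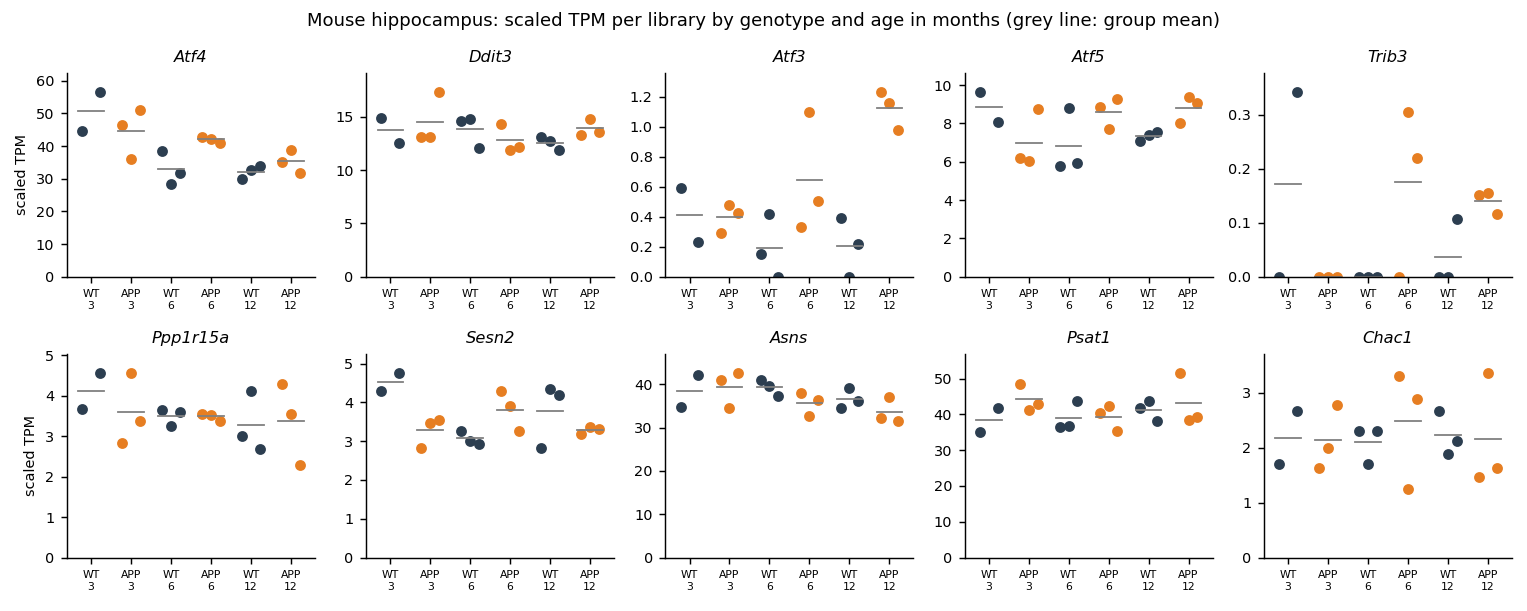
Scaled TPM (vertical axis, from 0) of the 10 genes in mouse hippocampus, 1 point per mouse by genotype and age in months, WT dark and APP orange, with grey lines at group means. Most groups overlap, Asns stays between 31.6 and 42.7, and the 3 APP mice of 12 months hold Atf3 values of 0.978 to 1.23 above all WT mice.

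On TPM as deposited the tissue gave another answer at 6 months. Atf4 was 52.4, 47.2 and 59.8 TPM in APP and 26.5, 22.2 and 26.5 TPM in WT, higher by 1.05 on the log2 scale (SE 0.18, limma adjusted p 0.00047). There 7 of 8 genes were called, Chac1 being the exception at an adjusted p of 0.0759, but 57.6% of all genes were also called higher, and the median change over all genes was 0.60. Protein-coding genes held 36.2% to 51.0% of TPM in those APP libraries and 26.6% to 28.5% in WT, and their part in these calls was not tested. The genotype by age interaction called 3 of 8, Atf4, Sesn2 and Atf5, beside 33.1% of all genes. In HT-22 cells, TPM as deposited gave 8 of 9 genes lower in libraries labelled anti-Hsf1 than in scramble with Ab42, against 50.5% of genes called lower and a median change over all genes of -0.62. Those libraries held 30.1% to 42.1% of TPM in protein-coding genes, against 51.7% to 61.8% with scramble. Ab42 against reverse peptide under anti-Hsf1 gave 1 of 9, Atf5, beside 24.2% of genes called lower, and the peptide by LNA interaction gave 2 of 9, Ddit3 and Psat1, beside 25.3%.

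Among other genes of the pathway, few passed the test in tissue. Of 45 tested, 3 were higher in APP at 6 months (0.42% of all genes), 1 was higher averaged over ages (0.118%), 3 were lower at 12 than at 3 months in APP (1.36%), and 0 passed in the other 4 contrasts, where limma gave 5, 3, 10 and 8 of them an unadjusted p below 0.05 at 3 months, at 12 months, for the interaction and for age in WT. At 6 months Aldh1l2 rose from 0.628 ± 0.185 scaled TPM (SD, n = 3) in WT to 1.96 ± 0.354 (SD, n = 3) in APP, or by 0.86 on the log2 scale (SE 0.19, limma adjusted p 0.0346). That WT mean was under 1. The minimum of 1 TPM applied to the mean over all mouse libraries, so the higher APP libraries helped Aldh1l2 to reach the test. Slc38a2 rose by 0.43 (SE 0.09, limma adjusted p 0.0342) from 31.2 ± 2.21 to 42.5 ± 2.64 scaled TPM (SD, n = 3 each). Gpt2, an alanine aminotransferase, rose by 0.52 (SE 0.11, limma adjusted p 0.0348) from 20.1 ± 2.23 to 29.4 ± 3.83 scaled TPM (SD, n = 3 each). Averaged over ages Aldh1l2 rose by 0.61 (SE 0.11, limma adjusted p 0.04). At 6 months astrocyte markers summed to 856 to 1130 scaled TPM in APP against 724 to 845 in WT, and choroid plexus markers to 35.3 to 894 against 1124 to 1328, without overlap. Sums of neuron, microglia and oligodendrocyte markers overlapped, and the part of any marker list in these rises was not tested. Genotype at 6 months cannot be told apart from sex, and sex also enters the average over ages.

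These calls were narrow. Leaving out single libraries ended the call of Aldh1l2 at 6 months in 5 of 6 cases, of Gpt2 in 5 of 6 and of Slc38a2 in 4 of 6, with adjusted p up to 0.117, 0.128 and 0.121, and the averaged Aldh1l2 call in 14 of 17, up to 0.142. All 4 were lost without the filter on low TPM, at limma adjusted p of 0.0643 for Aldh1l2, 0.074 for Gpt2, 0.0645 for Slc38a2 and 0.0684 for the average. With only the 2 groups of 6 months in the fit, the 3 calls there were lost at 0.148 to 0.151. Of the 45 genes, 42 were called higher at 6 months on TPM as deposited (57.6% of all genes), 7 higher averaged over ages (7.43%), 26 for the genotype by age interaction (33.1%), 1 higher at 12 months (0.611%) and 1 lower with age in WT (0.0953%). With age in APP, Slc38a2 fell by 0.59 on the log2 scale (SE 0.09, limma adjusted p 0.00407), from 54.1 ± 3.47 to 35.7 ± 2.78 scaled TPM (SD, n = 3 each), and this call held in all 6 cases of a library left out. Its limma adjusted p was 0.105 on TPM as deposited, and with only the APP groups of 3 and 12 months in the fit it was 0.0588. Slc6a9, a glycine transporter, fell by 0.84 (SE 0.18, limma adjusted p 0.0234) and Herpud1 by 0.76 (SE 0.18, limma adjusted p 0.0312), and leaving out single libraries ended these in 4 and 5 of 6 cases, with adjusted p up to 0.114 and 0.119. On TPM as deposited Slc6a9 was at 0.0695 and Herpud1 at 0.137, with only the APP groups of 3 and 12 months in the fit at 0.128 and 0.0945, and Herpud1 without the filter at 0.0623. Immediate-early genes summed to 117, 359 and 372 scaled TPM in APP mice of 3 months, listed from low to high, and to 96.1 to 106 at 12 months. Astrocyte markers summed to 531 to 718 and 1134 to 1302, and microglia markers to 47.7 to 55.4 and 73.4 to 88.8. In each of these lists only 1 of 4 markers was called higher at 12 months, beside 3.28% of all genes called in either direction. Oligodendrocyte markers summed to 919 to 1576 at 3 months and 629 to 745 at 12 months in APP, and the part of any of these in the falls was not tested.

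Set side by side on TPM as deposited, most of the program was higher in HT-22 cells than in hippocampus. Atf4 was 126 to 536 TPM in HT-22 libraries and 22.2 to 68.9 in mouse libraries. Atf5 was 87.8 to 153 against 3.97 to 13.5, with medians 17-fold apart. Every HT-22 library exceeded every mouse library for Atf4, Ddit3, Atf5, Trib3, Ppp1r15a, Sesn2, Psat1 and Chac1, 8 of the 10 genes, as it did for 24.3% of 21921 genes, while 21.0% were lower in every HT-22 library. Asns overlapped, at 38.8 to 143 against 28.2 to 53.2, and Atf3 was above 0 in mouse libraries alone. The ratio of medians was 7.35 for Chac1, 5.88 for Atf4, 5.21 for Psat1, 5.09 for Ppp1r15a, 4.86 for Sesn2, 3.68 for Ddit3 and 1.92 for Asns. The order of levels within HT-22 cells, by median TPM, ran from Atf4 (217) and Psat1 (216), whose ranges overlap, through Atf5 (139), Asns (70.2) and Ddit3 (49.1) to Ppp1r15a (17.2), Sesn2 (16.7), Chac1 (14.2) and Trib3 (11.2). In hippocampus Psat1 (41.5), Atf4 (36.9) and Asns (36.6) overlapped at the top, above Ddit3 (13.4) and Atf5 (8.21). Protein-coding genes held a median of 51.3% of TPM in HT-22 libraries and 35.3% in mouse libraries, and the part of this in the ratios was not tested. Cell line and tissue differ in much besides, and no test was made between them.

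**Figure D5:**
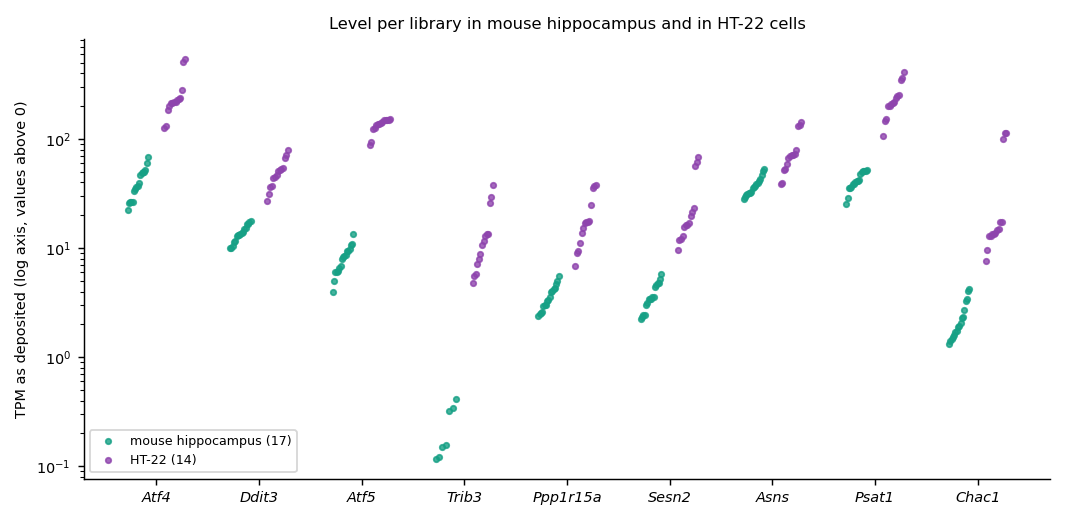
TPM as deposited (vertical axis, log scale, values above 0) of 9 genes in 17 mouse hippocampus libraries (green) and 14 HT-22 libraries (purple), 1 point per library, sorted within each gene, with 10 mouse libraries that list Trib3 at 0 not drawn. The point clouds overlap for Asns alone, and Atf5 shows a gap between at most 13.5 in mouse and at least 87.8 in HT-22.

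The genes most like the program were ranked by Pearson correlation with the mean standardised level of its tested genes, over the libraries of 1 system and with no test. Over the 14 HT-22 libraries they were Eif3b, a subunit of a translation initiation factor (r = 0.985), Tnfrsf12a, Slc3a2 and Pgk1 (0.984 each) and the immediate-early gene Ier2 (0.983), of 11600 genes ranked. All 5 were higher in each of the 3 high libraries than in the other 11, as with Tnfrsf12a at 228 or more against at most 48.3 scaled TPM. Over the 11 others the list was Garnl3, Acox3, Tle6, Mrip-ps and Spsb3, at r of 0.95 to 0.893, and shared no gene with the first. Within those 11 libraries the stress genes themselves correlated with their own mean at 0.236 for Sesn2 to 0.766 for Chac1, against 0.843 to 0.982 over all 14 for the 8 genes other than Atf5, which gave -0.147. Each gene is part of the mean it was correlated with, which by itself raises r. The values over all 14 also include the 3 libraries singled out as high. Over the 17 mouse libraries genes among the nearest were Marcksl1 (r = 0.808), Tmem11 (0.792), Cdipt (0.775) and Pcbp1 (0.773), and Psat1 correlated with the mean at 0.0455. The points of each correlation share depth and protein-coding share, which differ between libraries.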

How the data were processed

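Long RNA was depleted of ribosomal RNA and sequenced, per the labels' protocols, and 31 of the 62 libraries are of this kind. Per the file headers, the deposited tables give coverage signal, FPKM and TPM per gene and library, without pooling. The submitters' processing notes name cutadapt 1.18, HISAT2 2.1.0, BWA 0.7.17, bedtools 2.26.0 and StringTie 1.3.4d with mm10 and GRCm38, and no order of steps. Read counts are unknown, so no count test was run, and TPM is sensitive to abundant noncoding RNA. The 31 short-RNA libraries were not used here.

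TPM was summed per gene ID and scaled by median of ratios within mouse and within HT-22. limma 3.58.1 (R 4.3.3, trend and robust) was fitted to log2(scaled TPM + 1), which understates changes of low genes, keeping genes whose mean TPM reached 1. One fit held 17 mouse libraries in 6 groups and another 14 HT-22 libraries in 4, with 12 contrasts, Benjamini-Hochberg adjustment over all genes and a call at 0.05. The fit was tested on simulated data. Alternatives were TPM as deposited, a pseudocount of 0.1, no filter, only the contrast's groups, each library left out, a replicate block and, chosen after seeing the data, leaving out 3 scramble libraries. Members and lists were chosen with earlier results of these data known. All 10 members are named, up to 4 called genes per pathway list and contrast, and the 5 genes most like the members among those whose mean TPM reached 5, of which 1 in mouse is not reported here. Promoter sequences are RefSeq's on GRCm38.p6. P-values measure the spread between these libraries.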

Additional observations from a re-analysis of the deposited data

Results flagged for a closer look

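In the reverse peptide with scramble group, replicate 4 lay far from the other 3 libraries for 4 genes, by a gap larger than 0.829 of the group's range. Atf4 was 492 scaled TPM there and 210 to 225 in the others. Chac1 was 95.2 against 14.6 to 15.2, Sesn2 was 54.1 against 12.2 to 16.9, and Psat1 was 337 against 198 to 219. Of 18 gene and group pairs with 4 libraries, these 4 stood out, all in 1 library, where chance alone would mark about 1 in 20. By the same measure this library stood above the other 3 for 4.9% of all 17291 genes tested and on either side for 6.56%. The genes share a library, so the 4 are not independent. In the Ab42 with scramble group, where 2 of 4 libraries were high, no gene stood out in this way.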

How the results depend on the processing

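No member was called in the 12 contrasts with a pseudocount of 0.1, without the filter or with any library of the contrast left out (0 to 0), in 9 contrasts fitted on their own groups, or in the 5 HT-22 contrasts without the 3 scramble libraries. On TPM as deposited the counts became 7 for APP against WT at 6 months, 3 for the genotype by age interaction, 1 for Ab42 against reverse peptide under anti-Hsf1, 8 for anti-Hsf1 against scramble with Ab42 and 2 for the peptide by LNA interaction, with 57.6%, 33.1%, 24.2%, 50.5% and 25.3% of all genes called in the same direction (any, for the genotype by age interaction). On TPM as deposited 5 changes larger than their error turned sign: Asns to 0.56 at 6 months and 0.14 averaged over ages, and Atf5 to -0.45 for the peptide under anti-Hsf1, -0.55 for the LNA with Ab42 and -0.51 for the interaction. Ppp1r15a for the LNA with Ab42 turned to 0.34 without the 3 scramble libraries. The cause was not tested. Same-numbered libraries were not treated as pairs, and a replicate block left 0 members called. The median correlation of their deviations was -0.00704 in mouse and 0.0153 in HT-22. A median near 0 does not show that no libraries were paired. In HT-22, same-numbered pairs ran from -0.216 to 0.575 and differently numbered pairs from -0.546 to 0.556. The block put Aldh1l2 at an adjusted p of 0.0523 at 6 months and 0.0796 averaged over ages, and the other 5 pathway calls stayed under 0.05. Fits on the contrast's groups alone were not possible for 3 contrasts that use all groups. Depth is known only as relative, so for genes under 1 TPM small differences were not detectable. Such genes in mouse were Atf3 and Trib3, with means of 0.525 and 0.0955 TPM.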
